A study of Mus musculus with 7 samples.

Results

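The major histocompatibility complex of the mouse, H2, lies on chromosome 17. The genes described here were all rows whose GENCODE symbol begins with H2-, without the names ending in -ps, together with 10 genes that act with them: B2m, Tap1, Tap2, Tapbp, Cd74, Ciita, Nlrc5, Psmb8, Psmb9 and Psmb10. They numbered 51 of the 43346 rows, of which 41 carried an H2- symbol. The samples were tibial growth plates of 7 male F1 mice from a cross of the inbred strain C57BL/6J (B6) with the wild-derived strain CAST/EiJ (CAST), killed at 21 d of age. There was 1 condition, no treatment and no control group, and each mouse carries 1 B6 and 1 CAST copy of each autosomal gene. The direction of the cross was not given in the sources used here. Total RNA of whole dissected growth plates was sequenced, and each gene had an estimated count for the B6 allele, one for the CAST allele and their total.

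Class I molecules display peptides from inside the cell on nearly every cell type. The polymorphic class Ia heavy chains (H2-K1 and H2-D1) pair with beta-2-microglobulin (B2m), receive peptides that the immunoproteasome (Psmb8, Psmb9, Psmb10) cuts and the TAP transporter (Tap1, Tap2) carries into the endoplasmic reticulum, and are held by tapasin (Tapbp) while they load. Class Ib molecules (H2-Q, H2-T and H2-M names) are less polymorphic relatives with narrower roles. Class II molecules (H2-A, H2-E) present engulfed peptides on B cells, dendritic cells and macrophages: the invariant chain Cd74 blocks their groove, H2-DM exchanges the peptide, and H2-O restrains H2-DM. Nlrc5 and Ciita are the transcriptional coactivators of class I and class II genes, and they act through factors bound to shared promoter boxes.

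Class Ia and class II promoters are shown to let those boxes be seen. The sequences come from RefSeq windows of build GRCm38.p6, from 250 bases before to 50 after each start, which held 37 of the 51 genes. Each runs 5′ to 3′ on the strand of its gene. In the class Ia windows the capitals mark, in order, GGATTCCCC (the enhancer A core bound by NF-kappa-B and related proteins), TTTCNNTTC (an interferon response core) and GATTGG on either strand (the Y box bound by NF-Y).
H2-K1, chr17:34000327-34000476, minus strand: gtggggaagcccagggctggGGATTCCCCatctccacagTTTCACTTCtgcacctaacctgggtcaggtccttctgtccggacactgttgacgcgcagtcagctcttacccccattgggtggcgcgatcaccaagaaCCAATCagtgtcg
H2-D1, chr17:35262905-35263054, plus strand: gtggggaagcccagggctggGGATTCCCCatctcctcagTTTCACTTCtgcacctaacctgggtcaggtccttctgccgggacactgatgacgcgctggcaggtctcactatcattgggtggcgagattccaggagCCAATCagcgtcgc
Aligned without gaps, these stretches had 119 of 150 bases in common. In the class II windows the capitals mark CTNGCAAC, letters of the X box bound by the RFX complex, and the Y box.
H2-Aa, chr17:34287843-34287932, minus strand: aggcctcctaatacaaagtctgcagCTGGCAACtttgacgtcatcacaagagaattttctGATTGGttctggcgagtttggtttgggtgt
H2-Eb1, chr17:34305747-34305842, plus strand: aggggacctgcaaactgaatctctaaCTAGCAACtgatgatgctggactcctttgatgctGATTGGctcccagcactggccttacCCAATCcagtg
H2-Ob, chr17:34238787-34238876, plus strand: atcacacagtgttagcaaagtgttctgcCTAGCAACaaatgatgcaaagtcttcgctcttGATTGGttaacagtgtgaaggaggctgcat
From the first X letter to the first Y letter there were 35 bases in H2-Aa, 34 in H2-Eb1 and 32 in H2-Ob. On either strand, the Y box letters were found in all 8 class II windows, in 16 of the 22 class I windows, and in 16.1% of all 32851 windows. The X letters were in 4 of the 8 class II windows, in 2 of the 22 class I windows (H2-M10.5, and H2-D1 outside the stretch shown) and in 3.42% of all windows. The enhancer A letters were in 0.283% of all windows and, among these genes, in H2-K1, H2-D1 and H2-Q6. The interferon response letters were in 8 of the 22 class I windows, none of the 8 class II windows and 7.52% of all windows. These are matches of letters, not measured binding sites. H2-Ab1, Tap2, Ciita and Nlrc5 had no window.

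The test took in 37 of the 51 genes, those with counts over 1e-06 in all 7 mice once both alleles were added. The other 14 were at or near 0: H2-Pa, H2-Q3, H2-M10.1, H2-M10.3, H2-M10.4, H2-M10.5 and H2-M10.6 had no count in any mouse, and H2-Q1, H2-Q2, H2-T3, H2-M10.2, H2-M11, H2-M1 and H2-M5 lacked counts in 1 or more mice, with a highest total of 8 counts in any mouse (H2-M10.2). Totals over all genes ranged from 14098019 to 37849667 estimated counts per mouse, with a median of 27603769. The study's methods give an average number of paired reads per sample that is below all of these totals. This difference was not resolved. The floor used below for H2-Ea-ps covers counting error only. Each ± value is an SD over mice or an SE from the edgeR test, and both include spread between mice.

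The class I chains and the invariant chain had the highest levels. Levels are given as CPM, the estimated counts in each 1000000 of a library after scaling by TMM (the trimmed mean of M values), and, between genes, per kilobase of merged GENCODE exons, which includes exons of minor transcripts. B2m, the light chain shared by class I molecules, was the highest at 113 ± 17.8 CPM per kilobase (SD, n = 7). H2-D1 followed at 87.5 ± 11.9, then Cd74 at 58.7 ± 12.6 and H2-K1 at 43.8 ± 7.19. The mice of B2m and H2-D1 overlapped, as did those of Cd74 and H2-K1, while every H2-D1 mouse lay above every H2-K1 mouse (69.5 to 101 against 33.4 to 52.9). Tapasin stood at 27.3 ± 2.76. The class II chains formed a lower tier, with H2-Eb1 at 16.1 ± 3.01, H2-Ab1 at 15.3 ± 2.88 and H2-Aa at 11.3 ± 1.82, and their ranges overlapped. H2-T23, the class Ib heavy chain of Qa-1, was the highest class Ib gene at 13.2 ± 1.82. The coactivators were low, Nlrc5 at 1.22 ± 0.313 and Ciita at 0.992 ± 0.219. H2-Ob, the beta chain of H2-O, was last of the 27 genes with a mean total of at least 100 counts, at 0.891 ± 0.286.

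**Figure D1:**
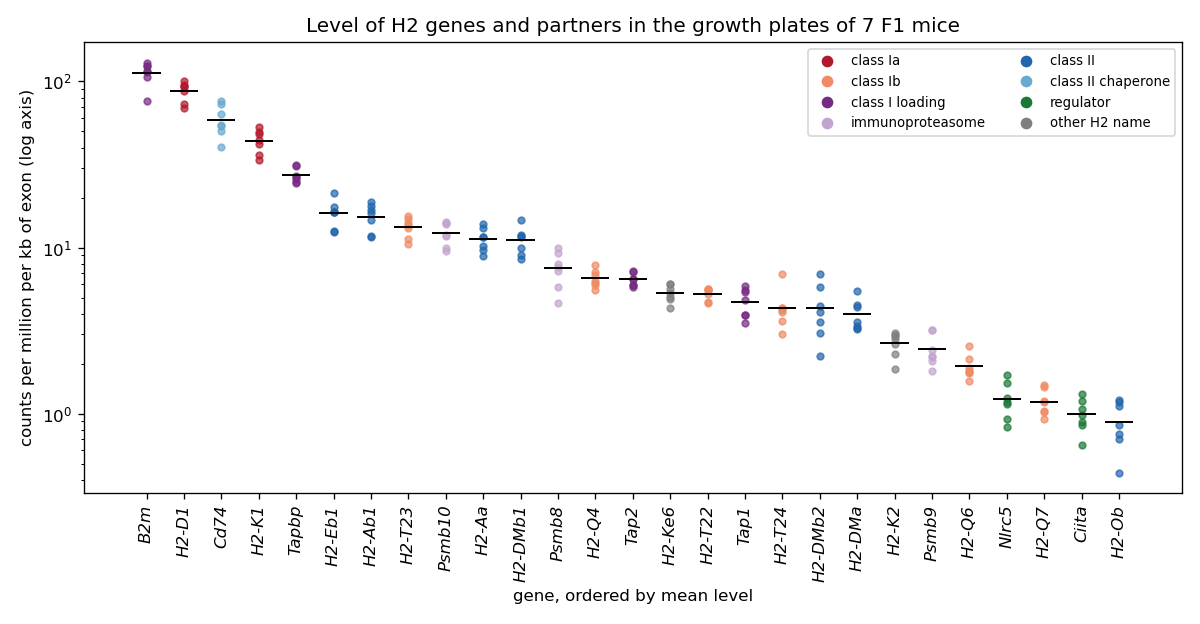
Level of the 27 members with a mean total of at least 100 counts, in TMM-scaled CPM per kilobase of exon on a log axis. Each point is 1 of 7 mice and each bar the mean. B2m, H2-D1, Cd74 and H2-K1 lead, and H2-Ob is lowest at 0.891.

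The growth plates held RNA of other cells beside chondrocytes. The 10 chondrocyte markers (Col2a1, Acan and others) were all counted in every mouse and summed to 61730 to 110960 CPM. All 9 B-lineage markers, Cd79a and Pax5 among them, were also counted in every mouse and summed to 177 to 431 CPM. All 10 mononuclear phagocyte markers were counted in every mouse and summed to 825 to 1239 CPM, with Lyz2 as the highest. In such bulk tissue, fewer cells of a type and less RNA per cell cannot be told apart.

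The levels of Cd74 and H2-Aa were compared with those markers across mice. Cd74 ranged from 67.8 CPM (lowest) through 91.1 (median) to 127 (highest). It was lowest in mouse 3 and highest in mouse 7, the mice with the lowest and the highest B-lineage and phagocyte sums. Over the 7 mice, Pearson's r of Cd74 with the phagocyte sum was 0.979 (exact permutation p = 0.000397, adjusted over 12 relations 0.00476) and Spearman's rho was 0.964 (exact permutation p = 0.00278, adjusted 0.0333). With the B-lineage sum, r was 0.987 (exact permutation p = 0.00139, adjusted 0.00556) and rho was 0.893 (exact permutation p = 0.0123, adjusted 0.0492). Without the 2 mice farthest from the median of the marker sum, r was 0.948 for phagocytes (mice 3 and 7 left out). For the B lineage it was 0.953 (mice 5 and 7 left out). Lyz2 weighed most in the phagocyte sum, at a mean of 520 CPM. Lyz2 and C1qa had the same lowest and highest mice as Cd74, and the other phagocyte markers did not share both. Itgax was lowest in mouse 7, at 7.85 CPM. Relations with single markers were not tested.

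H2-Aa, the alpha chain of I-A, ranged from 33.7 through a median of 43.9 to 52.6 CPM. Its r with the phagocyte sum was 0.962 (exact permutation p = 0.00119, adjusted 0.00556), with rho 0.893 (exact permutation p = 0.0123, adjusted 0.0492). That r was 0.905 without the 2 farthest mice, 3 and 7. With the B-lineage sum, r was 0.918 (exact permutation p = 0.00655, adjusted 0.0196) and 0.715 without its 2 farthest mice, 5 and 7. There rho of 0.786 did not pass (exact permutation p = 0.0480, adjusted 0.115). Since the B-lineage and phagocyte sums were both lowest in mouse 3 and highest in mouse 7, their parts cannot be told apart.

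H2-K1 ranged from 98.2 through 130 to 155 CPM. Its r with the phagocyte sum was 0.884 (exact permutation p = 0.0109, adjusted 0.0262) and 0.866 without the 2 farthest mice, but rho of 0.821 did not pass the adjustment (exact permutation p = 0.0341, adjusted 0.102). With the B-lineage sum r was 0.779 (exact permutation p = 0.0438, adjusted 0.0877), rho was 0.714 (exact permutation p = 0.0881, adjusted 0.176), and r was 0.494 without the 2 farthest mice. B2m passed with neither sum, at r of 0.151 for phagocytes (exact permutation p = 0.732, adjusted 0.774) and 0.248 for the B lineage (exact permutation p = 0.601, adjusted 0.774). Its rho values were 0.286 and 0.429 (exact permutation p = 0.556 and 0.354, adjusted 0.741 and 0.606). With the chondrocyte sum, none of the 4 genes passed, and the r furthest from 0 was that of B2m, -0.723 (exact permutation p = 0.0962, adjusted 0.165). That value rests on mouse 4, which had the highest chondrocyte sum and, at 65.6 CPM, the lowest B2m. Without mice 2 and 4 r was -0.361, and rho over all 7 mice was -0.321 (exact permutation p = 0.498, adjusted 0.741). The labels name no batch within which these relations could be repeated.

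**Figure D2:**
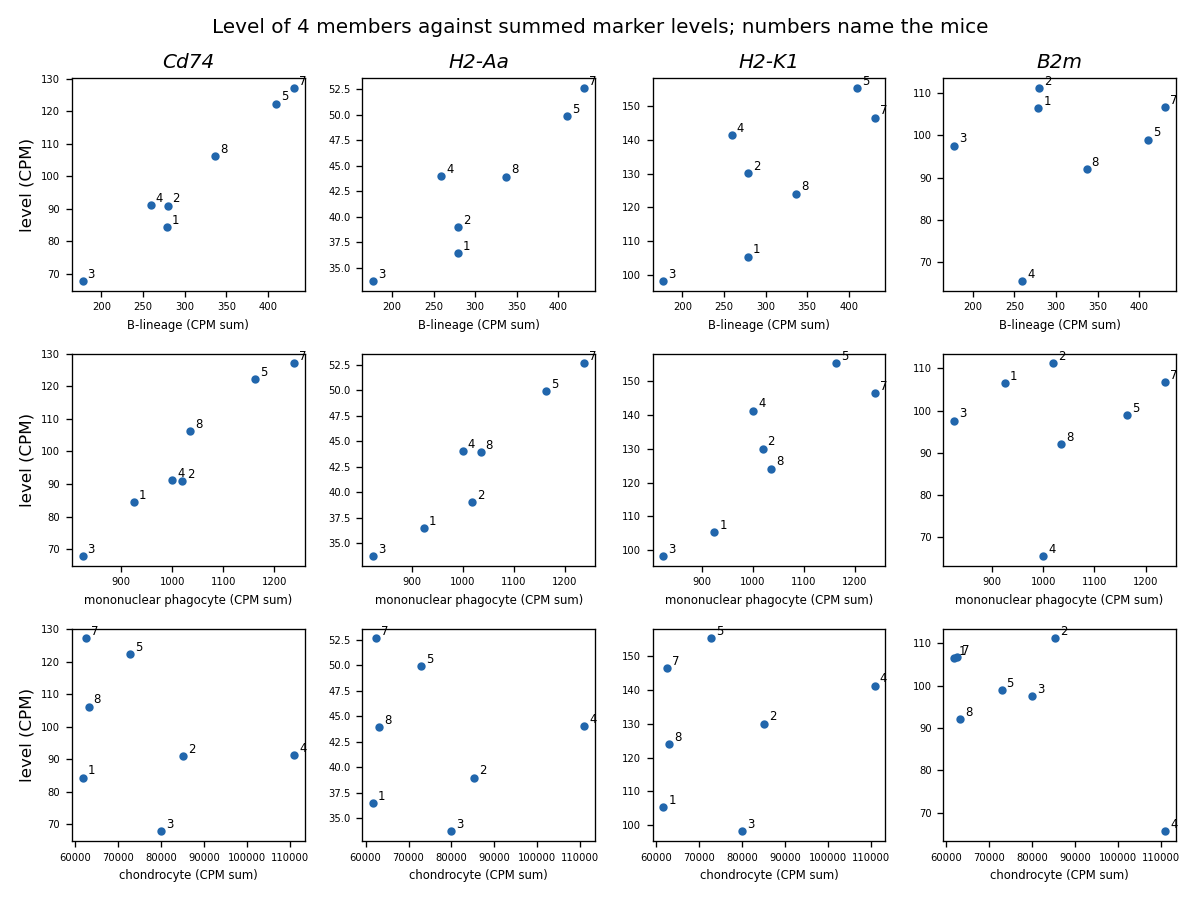
Level of Cd74, H2-Aa, H2-K1 and B2m (CPM, vertical axes) against the summed level of the B-lineage, phagocyte and chondrocyte markers (CPM, horizontal axes); each point is a mouse with its number. Cd74 rises with the phagocyte sum with r of 0.979, while B2m is set apart by mouse 4.

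Allele against allele, 21 of the 37 tested members differed at an FDR under 0.20 (edgeR likelihood-ratio test, Benjamini-Hochberg over 20034 genes), against 34.7% of all tested genes. Of these, 13 were higher on B6, where 18.6% of all genes were called, and 8 were higher on CAST, where 16.1% were. At an FDR under 0.05 there were 16, of which 5 were higher on CAST. The share of all genes at that threshold is not given here. The median log2 fold change of CAST over B6 was -0.11 over the members and 0.01 over all genes. In all 7 mice the B6 count was the higher for 11 members, a pattern found in 14.0% of all genes. The CAST count was the higher in all 7 mice for 9 members, against 10.6% of all genes. With the mouse as a block (edgeR quasi-likelihood test), 25 members were called, where 40.7% of all genes were. By class, both class Ia genes, 8 of 13 class Ib, 4 of 9 class II, none of 4 loading genes, 1 of 3 immunoproteasome subunits, both coactivators, Cd74 and all 3 with other H2 names were called.

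A limit goes with these values. A total that is not a whole number shows that reads matching several genes were divided between them, and 22 of the 37 members had one in at least 1 mouse (20 in all 7), against 49.4% of all tested genes. These were both class Ia genes, 11 of 13 class Ib genes, 3 of 4 loading genes (Tap1, Tap2, Tapbp), Psmb8, Psmb9, H2-DMb1, H2-DMb2, H2-K2 and H2-Ke6. Among class II genes the only ones were H2-DMb1 and H2-DMb2, and B2m, Cd74, Ciita and Nlrc5 had whole totals throughout. Of the 15 members with whole totals 8 were called, and 2 of the 8 were higher on CAST. The share over all tested genes, 34.7%, includes genes with non-whole totals. The share among all genes with whole totals is not given here. For the genes that share reads, an unequal allele count and an unequal division of reads between genes cannot be told apart. Whole totals speak only to sharing between genes. The CAST sequence was mm10 with known CAST variants put in. How completely the reads of each allele aligned was not tested for any member.

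Identical stretches of coding sequence show where reads of these genes could match more than 1 gene. The longest identical coding stretch of H2-K1 and H2-D1 measured 91 bases and lay in exon 4 of both, the exon for the alpha-3 domain (chr17:33997343-33997433, minus strand, and chr17:35265911-35266001, plus strand, GENCODE M21, GRCm38). It is longer than a read of 75 bases.
H2-K1 and H2-D1, coding strand: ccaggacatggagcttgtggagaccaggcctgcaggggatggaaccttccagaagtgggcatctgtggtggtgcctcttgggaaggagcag
Of all 75-base words in H2-K1 transcripts 3.10% occurred in another gene, and of those in H2-D1 5.56%. Most of these were shared with other genes than this pair. H2-K1 had 89 words in common with H2-Q10 and 24 with H2-D1, and H2-D1 had 110 in common with H2-Q1. H2-T22 shared 39.97% of its words and H2-T10 35.98%, in part with each other (15.7% and 16.0% of their words) and in part with the antisense genes A930015D03Rik and BC023719 that overlap them. Whether the authors' counting used strand was not given in the sources used here, so reads of these genes and their antisense partners cannot be told apart. Their longest shared coding stretch, 134 bases across an exon junction, is shown because their allele ratios were opposite.
H2-T10 and H2-T22, coding strand: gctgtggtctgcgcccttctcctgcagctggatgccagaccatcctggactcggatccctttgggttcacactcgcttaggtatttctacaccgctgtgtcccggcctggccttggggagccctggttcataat
H2-Q6 and H2-Q7 had 265 coding bases in a row in common. H2-Aa, H2-Ab1, H2-Eb1, H2-Ob, H2-M3, Cd74 and B2m shared no 75-base word with any other gene.

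Both class Ia genes had more B6 than CAST counts in 7 of 7 mice. H2-K1 (chr17:33996017-34000347) had 892, 1114 and 2412 CAST counts (lowest, median and highest mouse) against 1226, 1755 and 3679 B6 counts. The log2 fold change was -0.59 ± 0.12 (SE, edgeR FDR = 2.02e-05), and the log2 ratio within a mouse lay between -0.69 and -0.46 (exact sign-flip p = 0.0156, the smallest that 7 mice allow). H2-D1 (chr17:35262730-35267499) had 1115, 1811 and 3677 CAST counts against 2373, 3486 and 6519 B6 counts. Its log2 fold change was -0.97 ± 0.11 (SE, edgeR FDR = 2.19e-16), with within-mouse ratios from -1.09 to -0.83 (exact sign-flip p = 0.0156). The ratios of these genes did not overlap, since H2-D1 was further toward B6 than H2-K1 in 7 of 7 mice, by 0.18 to 0.63 log2 units. The counts of an allele overlapped between mice because depth differed, and the direction held in each mouse. When the counts of both genes were added, which leaves out a division of reads between them but not with other genes, CAST had 34.3% to 37.4% of counts. With H2-K2 added as well, it had 35.03% to 38.03%.

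**Figure D3:**
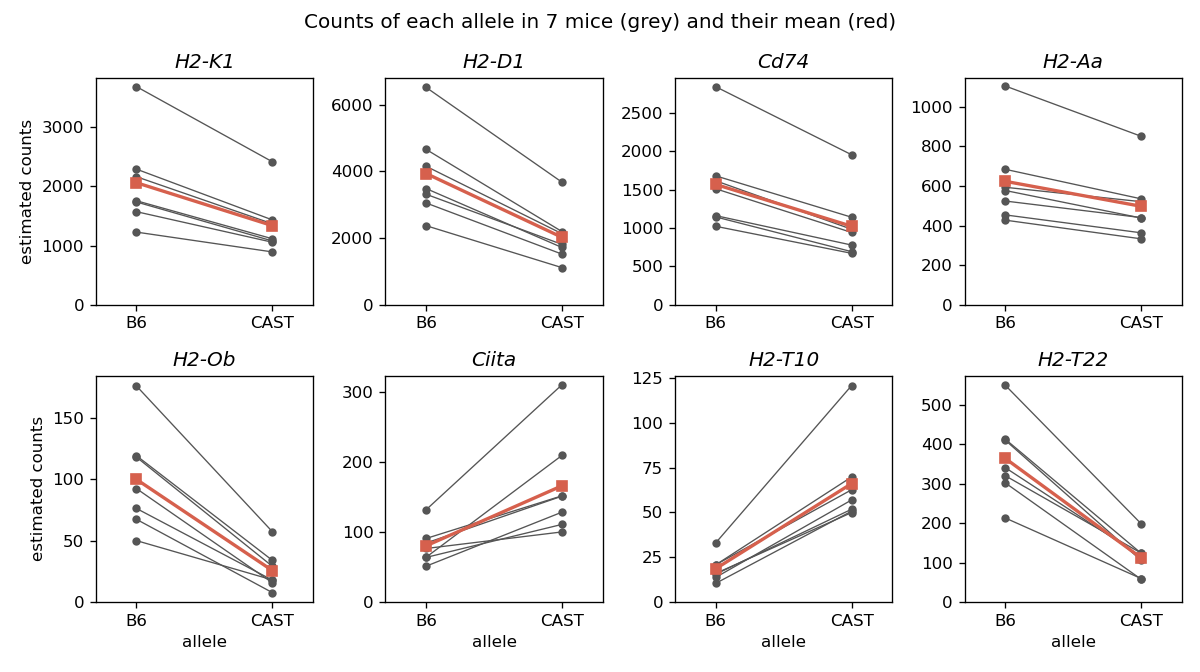
Estimated counts of the B6 and the CAST allele of 8 members in each of 7 mice (grey lines) and their mean (red squares), with vertical axes that start at 0. Every grey line falls toward CAST for H2-K1, H2-D1, Cd74, H2-Aa, H2-Ob and H2-T22 and climbs for Ciita and H2-T10.

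Among class Ib genes, H2-T22 and H2-T10, which bind gamma-delta T cell receptors, stood on opposite sides. GENCODE types H2-T22 as protein-coding and H2-T10 as a polymorphic pseudogene. H2-T22 had 57.6, 115 and 198 CAST counts against 213, 340 and 549 B6 counts, a log2 fold change of -1.72 ± 0.12 (SE, edgeR FDR = 4.20e-45). H2-T10 had 49.9, 56.9 and 121 CAST counts against 10.5, 16.0 and 33.0 B6 counts, a log2 fold change of 1.86 ± 0.21 (SE, edgeR FDR = 3.57e-18). The alleles of both kept their order in 7 of 7 mice. With the counts of both genes added, CAST had 25.6% to 35.4%.

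H2-M3, which presents N-formylated peptides, had whole totals and 24.5, 32.0 and 42.5 CAST counts against 33.7, 56.7 and 130 B6 counts. The B6 count was the higher in 7 of 7 mice, at a log2 fold change of -0.94 ± 0.18 (SE, edgeR FDR = 3.50e-06). H2-T24 had 90.2, 122 and 358 CAST counts against 41.8, 102 and 232 B6 counts, and was higher on CAST in 7 of 7 mice by 0.66 ± 0.20 log2 units (SE, edgeR FDR = 0.00749). H2-T23 did not pass the test, at 0.14 ± 0.11 (SE, edgeR FDR = 0.417), with more CAST counts in 6 of 7 mice. With the mouse as a block its FDR was 0.0401 (edgeR quasi-likelihood test).

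The tested H2-Q genes had allele ratios that differed between mice. Mean totals were low for H2-Q5 and H2-Q10 (46.2 and 68.0 counts) and higher for H2-Q6, H2-Q7 and H2-Q4 (108, 136 and 459). H2-Q5, typed as a polymorphic pseudogene, had 2.34, 5.6 and 17.3 CAST counts against 16.8, 35 and 73.9 B6 counts, with the B6 count higher in 7 of 7 mice and a log2 fold change of -2.45 ± 0.33 (SE, edgeR FDR = 2.16e-12). H2-Q10, known as a secreted class I protein of liver, had 0.0406, 11.1 and 41.3 CAST counts against 25.3, 47.1 and 101 B6 counts, at -1.68 ± 0.34 (SE, edgeR FDR = 1.02e-05). Mouse 1 went the other way, with 56.8% of its counts from CAST, and mouse 4 had 0.112% from CAST. H2-Q6, a Qa-2 gene, was higher on B6 in 6 of 7 mice at -0.63 ± 0.21 (SE, edgeR FDR = 0.0151). H2-Q7, its close relative, was at -0.28 ± 0.19 (SE, edgeR FDR = 0.329), and its FDR was 0.179 without mouse 2. H2-Q4 did not pass, at 0.11 ± 0.13 (SE, edgeR FDR = 0.652). Summed over H2-Q4, H2-Q5, H2-Q6, H2-Q7 and H2-Q10, CAST had 39.9% to 50.9% of counts. H2-Bl, typed likewise, had at most 11.4 CAST and 0.867 B6 counts in a mouse and was called higher on CAST in 7 of 7 mice (edgeR FDR = 4.88e-06). H2-M2 and H2-M9 had mean totals of 2.00 and 2.43 counts and were not called. H2-M9 had equal allele counts in every mouse, which left no difference to call.

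**Figure D4:**
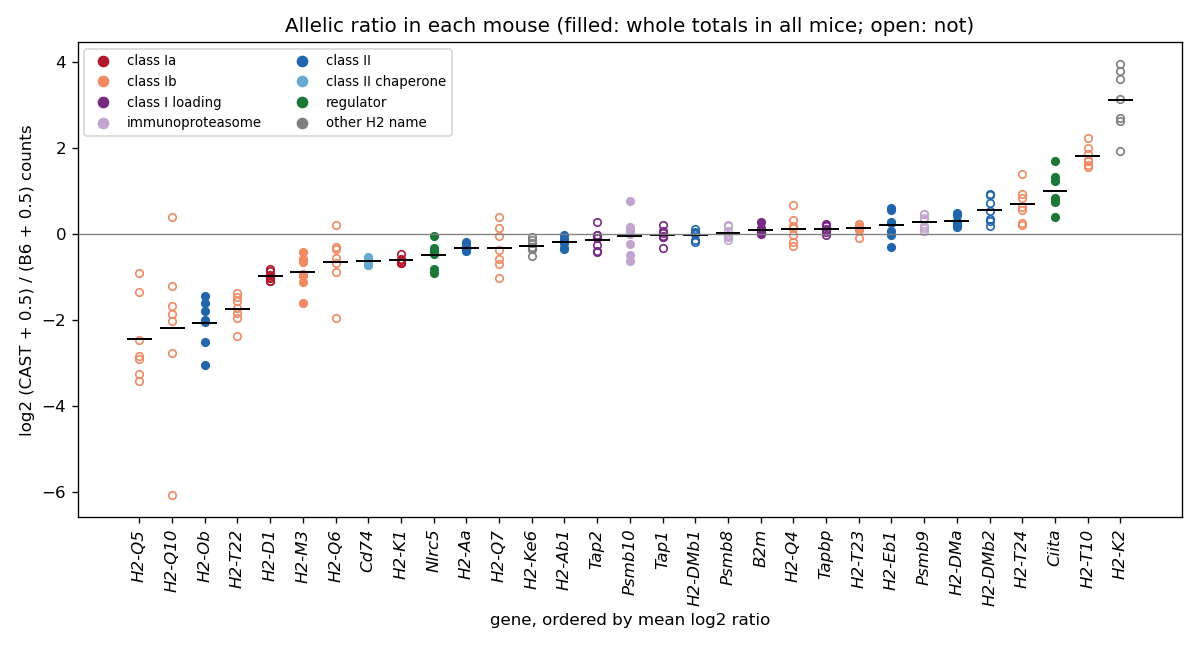
Log2 ratio of CAST to B6 counts, each with 0.5 added, in 7 mice for the 31 members with a mean total of at least 40 counts. Bars are means, filled points have whole totals in every mouse and open points do not. H2-Q5, H2-Q10 and H2-Ob lie lowest, H2-T10 and H2-K2 highest.

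The invariant chain and the I-A and I-E chains gave mixed allele values. Cd74, on chromosome 18, had 671, 943 and 1956 CAST counts against 1023, 1512 and 2842 B6 counts. It was higher on B6 in 7 of 7 mice, with a log2 fold change of -0.62 ± 0.15 (SE, edgeR FDR = 0.000216) and 39.3% ± 1.27 of counts from CAST (SD, n = 7). H2-Aa (chr17:34282744-34287823) had 333, 441 and 851 CAST counts against 428, 578 and 1106 B6 counts, at -0.31 ± 0.12 (SE, edgeR FDR = 0.0348) and in 7 of 7 mice. H2-Ab1, the beta chain that pairs with it, had 332, 471 and 800 CAST counts against 369, 483 and 892 B6 counts. Its value was -0.17 ± 0.14 (SE, edgeR FDR = 0.421), with the B6 count higher in 7 of 7 mice, and with the mouse as a block the FDR was 0.0228 (edgeR quasi-likelihood test). H2-Eb1, the beta chain of I-E, had 263, 407 and 689 CAST counts against 270, 325 and 653 B6 counts. It did not pass, at 0.23 ± 0.14 (SE, edgeR FDR = 0.287), with 5 of 7 mice higher on CAST, and its FDR was 0.145 without mouse 4.

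The gene for the alpha chain that would pair with H2-Eb1 is annotated as a pseudogene, H2-Ea-ps, since B6 is known not to express it. It is not a member by its name. It had 137, 195 and 404 CAST counts and no B6 count above 4.06e-05 in any mouse. Against a floor of 3 B6 counts per library, the CAST count was at least 45.7-fold higher in each mouse. H2-Ea-ps totals were whole in all 7 mice.

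Among the class II members, the log2 fold change furthest from 0 was that of H2-Ob, the beta chain of H2-O. H2-Ob (chr17:34238903-34254414) had 7.71, 18.0 and 57.2 CAST counts against 50, 92.3 and 176 B6 counts. The B6 count was higher in 7 of 7 mice, with a log2 fold change of -1.998 ± 0.27 (SE, edgeR FDR = 1.07e-12), 19.6% ± 5.66 of counts from CAST (SD, n = 7) and whole totals. Its partner H2-Oa had 6.33, 17.1 and 21.3 CAST counts against 4.89, 20.05 and 48.7 B6 counts and did not pass, at -0.54 ± 0.36 (SE, edgeR FDR = 0.313). Mice 1 and 4 had more CAST than B6 counts for H2-Oa, and without mouse 4 its log2 fold change was -0.80 (edgeR FDR = 0.0816). H2-Eb2 averaged 3.14 counts and was not called (edgeR FDR = 0.777).

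The H2-DM genes leaned toward CAST or were balanced. H2-DMa had 119, 176 and 327 CAST counts against 105, 148 and 264 B6 counts and was higher on CAST in 7 of 7 mice by 0.32 ± 0.15 (SE, edgeR FDR = 0.107, and 0.221 without mouse 8). H2-DMb2 had 73.0, 97.0 and 190 CAST counts against 38, 72.6 and 115 B6 counts, higher on CAST in 7 of 7 mice by 0.54 ± 0.25 (SE, edgeR FDR = 0.111). Without mouse 1 or mouse 5 its FDR was 0.237 or 0.234. H2-DMb1, which shares 15.8% of its 75-base words with H2-DMb2, was at -0.01 ± 0.14 (SE, edgeR FDR = 1.00). Over the 2 beta genes together CAST had 49.9% to 56.0% of counts.

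The coactivators differed in opposite directions, and neither lies on chromosome 17. Ciita, on chromosome 16, had 100, 152 and 311 CAST counts against 51.4, 76.7 and 132 B6 counts. It was higher on CAST in 7 of 7 mice, with a log2 fold change of 1.05 ± 0.18 (SE, edgeR FDR = 1.24e-07) and 66.5% ± 6.66 of counts from CAST (SD, n = 7). Nlrc5, on chromosome 8, had 52.6, 98.5 and 244 CAST counts against 73.4, 125 and 324 B6 counts. It was higher on B6 in 7 of 7 mice at -0.47 ± 0.19 (SE, edgeR FDR = 0.0554, and 0.208 without mouse 2).

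The loading and processing genes were close to even. B2m, on chromosome 2, had 667, 1447 and 2028 CAST counts against 552, 1345 and 1854 B6 counts. Its value was 0.10 ± 0.13 (SE, edgeR FDR = 0.683) and the CAST count was the higher in 7 of 7 mice, with 51.6% ± 1.52 from CAST (SD, n = 7). With the mouse as a block the B2m FDR was 0.0418 (edgeR quasi-likelihood test). Tapbp had 724, 1432 and 1896 CAST counts against 672, 1264 and 1915 B6 counts, at 0.14 ± 0.10 (SE, edgeR FDR = 0.353), in 6 of 7 mice, with an FDR of 0.0229 with the mouse as a block (edgeR quasi-likelihood test). Tap1 had 221, 269 and 600 CAST counts against 237, 281 and 591 B6 counts, and Tap2 had 195, 286 and 462 against 199, 319 and 490. Their log2 fold changes were -0.01 ± 0.14 and -0.11 ± 0.10 (SE, edgeR FDR = 1.00 and 0.547).

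Psmb9, whose start faces that of Tap1 (their promoter windows overlap by 275 bases), had 77.8, 110 and 254 CAST counts against 73.4, 96.4 and 202 B6 counts. It was higher on CAST in 7 of 7 mice by 0.31 ± 0.16 (SE, edgeR FDR = 0.166), and the FDR was between 0.208 and 0.318 when mouse 1, 2, 3, 7 or 8 was left out. Psmb8 had 220, 308 and 601 CAST counts against 222, 315 and 630 B6 counts, at 0.05 ± 0.17 (SE, edgeR FDR = 0.933). Psmb10, on chromosome 8, had 138, 231 and 486 CAST counts against 208, 253 and 438 B6 counts, at -0.06 ± 0.16 (SE, edgeR FDR = 0.897). Its CAST share ranged widely, from 39.4% in mouse 7 to 63.2% in mouse 1, and mouse 3 had 231 counts on each allele. Its totals were whole, but how many of its reads distinguish the alleles was not tested.

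Of the other H2 names, H2-K2, a class I pseudogene beside H2-K1 that is transcribed, had 63.2, 103 and 177 CAST counts against 7.37, 11.4 and 21.8 B6 counts. It was higher on CAST in 7 of 7 mice by 3.15 ± 0.23 (SE, edgeR FDR = 2.42e-42), and its totals were not whole in any mouse. H2-Ke6, an enzyme gene in the region (a hydroxysteroid dehydrogenase), was higher on B6 in 7 of 7 mice at -0.26 ± 0.12 (SE, edgeR FDR = 0.112). Its FDR was 0.218, 0.242 and 0.201 without mouse 2, 4 or 7, and it shares 65.5% of its 75-base words with the overlapping Gm20427. H2-Pb, a pseudogene, had at most 8 B6 and 1.5 CAST counts in a mouse (edgeR FDR = 0.00576).

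The genes that lie between these members share their haplotype. Of the 272 other genes between the first and the last H2 member, 122 were tested and 31 were called (25.4%, beside 34.7% of all genes), 19 of them higher on CAST and 12 on B6, with a median log2 fold change of 0.02. Among the 55 with whole totals, 15 were called (27.3%), and the share among all genes with whole totals is not given here. No test of the difference from all genes was made. Vars, Gtf2h4, Ier3 and others of the 122 had a log2 fold change of 0.016. Ifi30 (below), whose allele counts were equal in every mouse, had the same value. Equal allele counts leave no difference to call, so this share and median do not show that the alleles were balanced. How many of the 122 had equal counts was not tested.

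**Figure D5:**
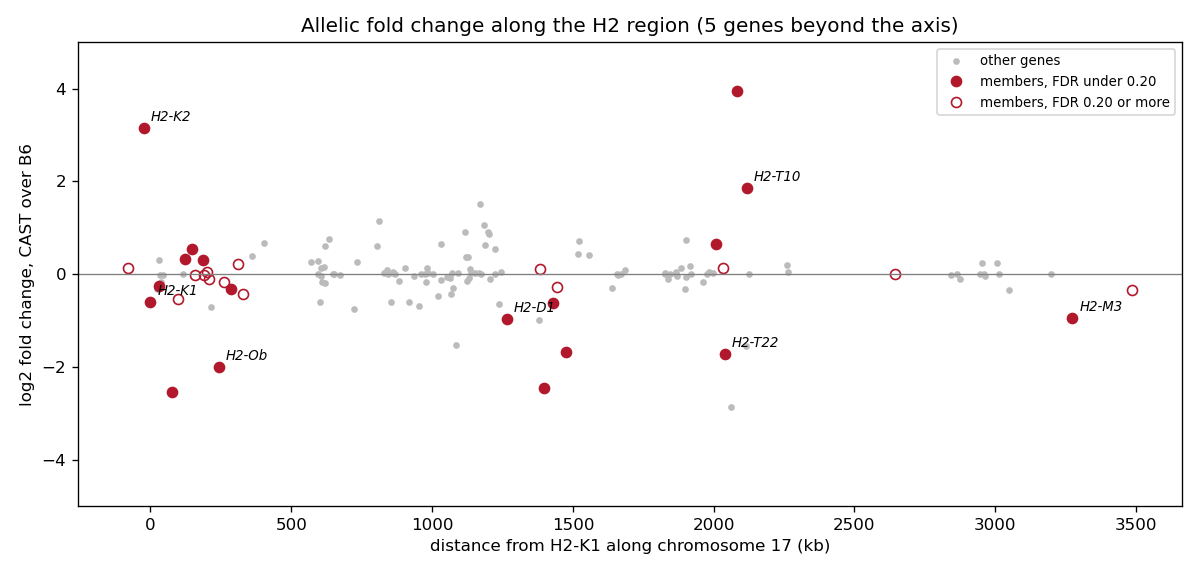
Log2 fold change of CAST over B6 against the distance from H2-K1 in kilobases, for the 154 tested genes of the H2 region on chromosome 17. Members are red, filled where the FDR was under 0.20, and other genes grey; 5 genes, H2-Ea-ps among them, lie beyond the axis. Members higher on B6 and members higher on CAST are interspersed along the region.

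Of 20 further antigen-presentation genes, 6 were called (34.7% of all genes were), 3 in each direction. Among the proteases of the class II pathway, cathepsin S (Ctss), which trims the invariant chain, was higher on B6 in 7 of 7 mice at -0.61 ± 0.11 (SE, edgeR FDR = 1.06e-06). Legumain (Lgmn) was higher on CAST in 7 of 7 mice by 0.51 ± 0.09 (SE, edgeR FDR = 3.95e-08). Cathepsin L (Ctsl) was higher on CAST by 0.20 ± 0.11 (SE, edgeR FDR = 0.173). Erap1, which trims class I peptides, was higher on CAST by 0.30 ± 0.14 (SE, edgeR FDR = 0.105). Of the promoter-binding factors, Nfyb was at -0.32 ± 0.14 (SE, edgeR FDR = 0.0842) and Rfxank at -0.24 ± 0.11 (SE, edgeR FDR = 0.0834), both higher on B6. Ifi30 had equal allele counts in every mouse (a mean of 768 on each), so the test had no difference to call. Whether its reads distinguish the alleles was not tested, and balanced expression cannot be read from these counts. The other 13, Irf1, Rfx5, Calr and Canx among them, did not pass.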

How the data were processed

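Per the labels, stranded total RNA libraries depleted of rRNA were sequenced in paired reads of 75 bases. The authors aligned each read end to a joint B6 and CAST transcriptome with Bowtie, with up to 3 mismatches (build mm10 and SAMtools are named in the submitters' processing notes) and EMASE divided reads among alleles and genes. They deposited expected counts per allele and gene, with their total. Their annotation release was not given in the sources used here. Names, exons and coordinates came from GENCODE M21, which held 98.0% of the row identifiers.

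Counts were rounded and fitted as in the study's methods with edgeR 4.0.16 in R 4.3.3 (TMM, glmFit, glmLRT, the allele as the only term) over 20034 genes with a count in every mouse, at an FDR under 0.20. Because the estimation leaves traces such as those under 1e-06, counts up to 1e-06 were taken as 0, a choice made after seeing the data. Totals within 0.0001 of a whole number were called whole. For single genes the mean log2 ratio, with 0.5 added to each count, was compared with all 2-sided sign flips over the mice (exact permutation test). The script was tested on simulated data. Members with a mean total of at least 100 counts, and the partner genes, were named with a fold change and FDR. Most were also given allele counts. H2-T23, H2-DMb1, H2-Q4, H2-Q6, H2-Q7 and H2-Ke6 were not. Low members were named by range. The members, gene lists and tests were chosen with earlier results of these data known.

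The labels give each mouse as its own sample. The main edgeR fit has the allele as its only term, so its p-values set the allele difference against the spread of allele counts between mice. The sign-flip test and the fits with the mouse as a block compare the alleles within each mouse. Both alleles come from the same animal, which pairs the columns. The correlation of their deviations ran from -0.055 to 0.189 within a mouse and from -0.214 to 0.172 between mice. Depth ran from 14098019 to 37849667 counts per mouse, which limits genes under about 10 counts. No 2 mice agreed within sampling noise.

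Alternatives were the edgeR quasi-likelihood test, then the mouse as a block, DESeq2 1.42.0, plain or shared library sizes, other filters, whole totals only, unrounded counts, other pseudocounts and each mouse left out.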

Additional observations from a re-analysis of the deposited data

Results flagged for a closer look

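For the 27 members with a mean total of at least 100 counts, the level and the log2 allele ratio were searched for a mouse that stood apart from the other 6, by Dixon's gap criterion. Of these 54 sets of values 2 had such a mouse, and chance gives about 1 in 20 (2.7 sets). B2m was at 65.6 CPM in mouse 4, against 92.0 to 111 in the other mice. Its gap was 0.580 of the range. H2-T24 was at 15.05 CPM in mouse 5, against 6.59 to 9.49 in the other mice, with a gap of 0.658 of the range. Mouse 4 also had the highest chondrocyte marker sum and mouse 5 the deepest library, and the part of either in these values was not tested.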

How the results depend on the processing

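The count of called members (21 of 37) ranged from 19 to 23 when 1 mouse was left out, and the count higher on CAST (8) from 6 to 10. These counts include 1 or 2 members that enter the test only without mouse 4 or mouse 7. Among the same 37 members the ranges were 19 to 22 and 6 to 9. Restricting the fit to genes with whole totals left 15 members, of which 8 were called and 2 of those were higher on CAST. At an FDR under 0.05, 5 were higher on CAST. Apart from the quasi-likelihood block, the share of all genes called is not given for these alternatives. Their counts show only how far the count of called members moves. With the mouse as a replicate block, 25 members were called by the quasi-likelihood test (11 higher on CAST) and 26 by the likelihood-ratio test (12 higher on CAST). Beside the values above, the likelihood-ratio block also called H2-Eb1 (edgeR FDR = 0.127), and no call was lost under either block among the 27 members with at least 100 counts. The quasi-likelihood test without a block and DESeq2 each called 21, and the count was 23 of 40 when values above exactly 0 were admitted, an alternative added after seeing the data. Psmb9 lost its call without TMM factors, with 1 library size per mouse, and without a filter beyond a count above 0 (edgeR FDR = 0.210, 0.256 and 0.202). Signs turned only near 0 among those 27 members. The log2 fold change of H2-DMb1 was 0.0025 with unrounded counts and between -0.025 and 0.023 with 1 mouse left out, that of Tap1 between -0.043 and 0.036, and that of Psmb10 between -0.17 and 0.044. No sign-flip call changed with a pseudocount of 0.1 or 1. In plain CPM the r of H2-K1 with B-lineage markers was 0.881 (exact permutation p, adjusted 0.0343) and with chondrocyte markers it was -0.22, against 0.18. Leaving out Rn7s1, Rn7s2 and Rn7sk moved the level of 23 of 27 members by more than 1 SD.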
